A study of Homo sapiens with 9 samples.

Results

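The 10 genes described here, DUSP4, DUSP5, DUSP6, SPRY1, SPRY2, SPRY4, SPRED1, SPRED2, ETV4 and ETV5, are feedback inhibitors and transcriptional outputs of the ERK pathway. They were chosen by gene symbol, with earlier results of these data known, and all 10 were found among the 25084 genes of the deposited table. The 9 RNA-seq libraries came from total RNA of LAN5, a human neuroblastoma cell line with many extra copies of MYCN. The cells had been nucleofected with siRNA of 1 of 3 kinds, a control (siCTR), one aimed at MYCN (labelled siMYCN_2, here siMYCN) or one aimed at HAND2 (labelled siHAND2_3, here siHAND2), and were grown for 72 h in RPMI-1640 with fetal calf serum before RNA was taken. Each group holds 3 libraries, each target was met by a single siRNA label, and all libraries come from 1 cell line. Nothing in the labels says whether replicates were separate cultures, so p-values measure the spread between these libraries, which may be technical. The series title asks which genes MYCN and HAND2, both helix-loop-helix transcription factors, regulate.

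ERK is the last kinase of the cascade that runs from receptor tyrosine kinases through RAS, RAF and MEK. Active ERK switches on genes whose products turn the cascade down again: DUSP phosphatases strip phosphate from MAP kinases, and Sprouty (SPRY) and SPRED proteins act between the receptor and RAF. ETV4 and ETV5 are ETS transcription factors of the PEA3 group, and with DUSP6 and the Sprouty genes they are widely used as transcript readouts of the pathway. In neuroblastoma the cascade is fed by receptors such as ALK, RET and the neurotrophin receptors, and LAN5 is known for an activating ALK mutation. Only transcripts were measured here, so neither the phosphorylation of ERK nor any protein was observed.

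Capicua (CIC) is a repressor that holds PEA3 factors, DUSP6 and Sprouty genes down until ERK relieves it, and it binds octamers of the kind TGAATGAA. The letters TGAATGAA, TGAATGGA, TCAATGAA and TCAATGGA were searched on both strands of the RefSeq promoter windows (GRCh38.p14, 250 bases before to 50 bases after a start), which were available for 6 of the 10 genes, with 10 windows in all. DUSP4, DUSP5, ETV4 and ETV5 had no window and were not searched. Windows of 3 genes are printed because they belong to DUSP6 and SPRY2, the 2 feedback genes that rose most in siMYCN, and to SPRY1, a relative of SPRY2 that parted from it in siHAND2. Each runs 5′ to 3′ on the gene's strand, and capitals mark a Capicua octamer. The DUSP6 window (chr12:89352492-89352601, minus strand) runs from base -100 to base 10 around the start, the SPRY2 window (chr13:80341127-80341226, minus strand) and the SPRY1 window (chr4:123396695-123396794, plus strand) from base -100 to base -1.
DUSP6: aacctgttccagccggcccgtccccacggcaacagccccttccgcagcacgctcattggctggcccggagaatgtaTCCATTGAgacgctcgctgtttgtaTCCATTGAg
SPRY2: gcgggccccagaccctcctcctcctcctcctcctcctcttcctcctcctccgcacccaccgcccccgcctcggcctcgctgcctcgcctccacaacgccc
SPRY1: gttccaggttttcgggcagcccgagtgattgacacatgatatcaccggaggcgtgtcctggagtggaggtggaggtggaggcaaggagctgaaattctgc
The DUSP6 window held TCAATGGA, read as TCCATTGA on the gene's strand, at bases -24 to -17 and again at bases 2 to 9, and the copies do not overlap. That octamer occurred in 0.51% of 35116 promoter windows, and 1 window among them, that of DUSP6, held it more than once. The other octamers were in 1.65% (TGAATGAA), 1.03% (TGAATGGA) and 0.718% (TCAATGAA) of all windows and in none of the 10 windows of these genes. They occurred more than once in 65, 12 and 3 of all windows, in that order. Windows that hold different octamers together were not counted, so a repeated octamer is not particular to DUSP6. The E-box CACGTG, the preferred site of MYC proteins, occurred in 7.26% of all windows and in none of the 10. CATCTG (14.7% of all windows) and CAGCTG (17.9%), E-boxes of the kind that HAND2 and its partners bind, were found only in the SPRED2 windows among these genes, as was the AP-1 site TGANTCA (7.71%). The cyclic AMP element TGACGTCA (1.85%) and the ETS site CCGGAAGT (4.14%) were in none of the 10 windows. These are letter matches in short windows, which say nothing about binding.

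Depth and comparability bear on all values below. The table gives CPM, the reads of a gene scaled to one total in every library, and its smallest steps put the assigned reads at 21.1 M to 32.7 M per library. MYCN, the first check of the labels, measured 1786 to 1894 CPM in siCTR, 1245 to 1338 in siMYCN and 877 to 969 in siHAND2, and HAND2 measured 489 to 516, 557 to 588 and 267 to 280.4. Each target was therefore lower with its own siRNA, and MYCN was lowest in siHAND2. All 10 sympathetic and neuronal markers on the list used (DBH, CHGA and STMN2 among them) reached 1 CPM in every library, with a summed level of 2908 to 3081 CPM in siCTR, 3523 to 3618 in siMYCN and 3004 to 3135 in siHAND2. Single markers went different ways in siHAND2: DBH averaged 263 CPM in siCTR and 130.1 in siHAND2, and STMN2 177 and 343 CPM. Of the markers of other cells, leukocyte, endothelial and Schwann cell lists summed to at most 0.165, 1.19 and 3.34 CPM in any library and the epithelial list to 4.06. The fibroblast list, of which 5 of 6 genes were in the table and 4 reached 1 CPM throughout, moved with the groups, at 164 to 170.2 CPM in siCTR, 195 to 203 in siMYCN and 289.9 to 329.6 in siHAND2. Its genes did not move alike: in siCTR, siMYCN and siHAND2, PDGFRB averaged 89.8, 98.8 and 179 CPM, LUM 9.15, 17.2 and 54.7, DCN 0.431, 1.30 and 11.02, COL3A1 1.42, 4.19 and 3.84 and THY1 65.4, 77.7 and 56.8, and the part of these genes in the results below was not tested. With bulk RNA, fewer cells of a kind and less RNA per cell cannot be told apart.

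The levels of the members were compared per kilobase of the canonical transcript (GENCODE v44). The annotation behind the counts is not given, so these lengths may differ from those counted. The deposited intervals of SPRY4, SPRED2, ETV4 and ETV5 differed from RefSeq, by 33280 bases at the end of ETV4. What this does to the order was not tested. In siCTR the order was DUSP4 (33.9 CPM per kb), DUSP6 (31.3), ETV4 (22.8), SPRY2 (22.6), ETV5 (16.1), SPRY4 (13.8), SPRY1 (12.2), SPRED2 (10.3), SPRED1 (9.98) and DUSP5 (1.24). The libraries of ETV4 and SPRY2 overlapped in this order, as did those of SPRED2 and SPRED1, and no other neighbours did. In siMYCN DUSP6 came first, at 57.9 CPM per kb (56.2 to 60.02 over the libraries), ahead of DUSP4 at 46.7 (43.8 to 49.6). In siHAND2 DUSP4 came first again, at 40.4 (38.4 to 41.5), and DUSP6 measured 27.6 (26.3 to 29.2). DUSP5 was last in every group.

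**Figure D1:**
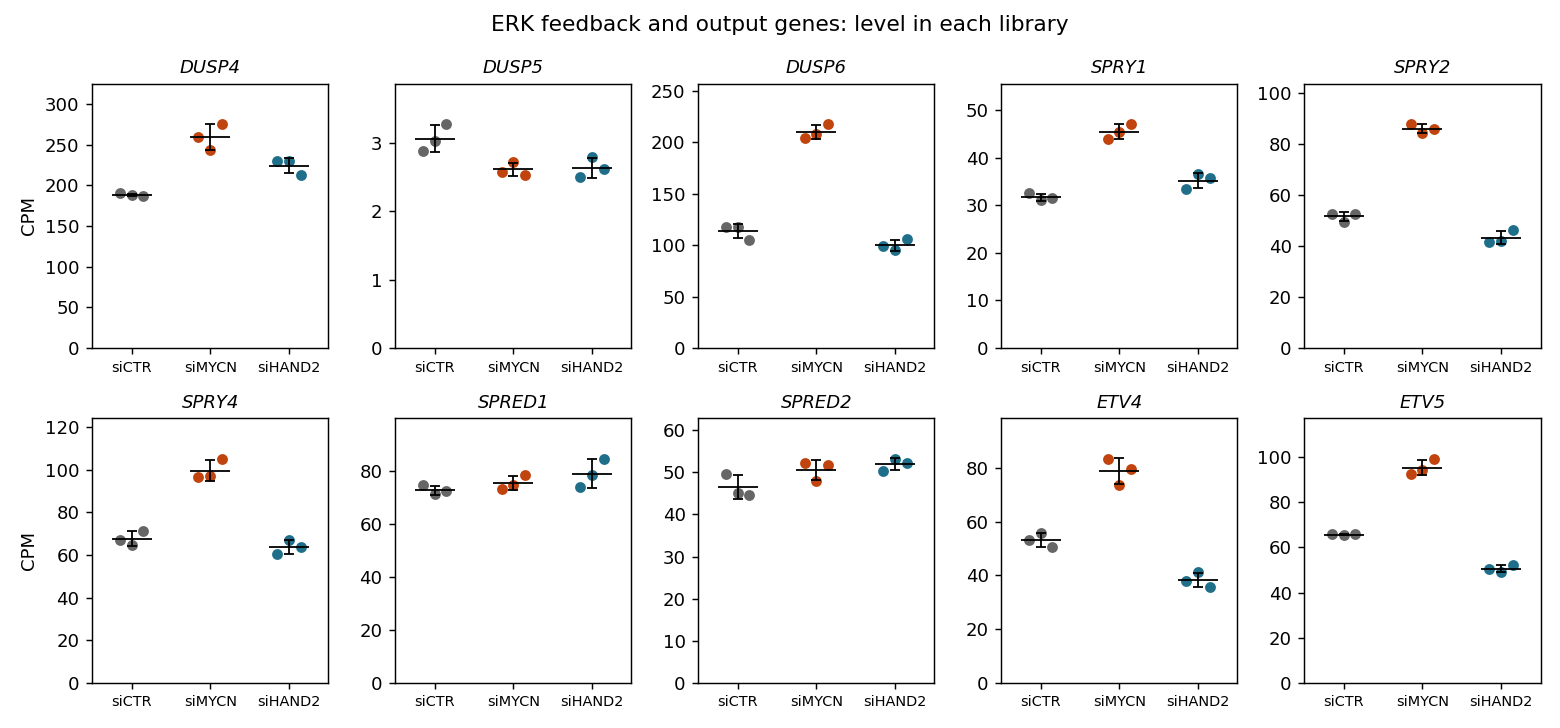
CPM of each of the 10 genes (one panel per gene, y axis from 0, own scale) in the 3 libraries of siCTR, siMYCN and siHAND2; points are libraries, the wide bar is the group mean and the error bar the SD (n = 3). DUSP4, DUSP6, SPRY1, SPRY2, SPRY4, ETV4 and ETV5 stand highest in siMYCN, while SPRED1, SPRED2 and DUSP5 differ little between groups.

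In the siMYCN group most of the feedback and output genes stood at a higher level. In siMYCN against siCTR 7 of the 10 members rose and none fell (limma on log2(CPM + 1) over all 14495 tested genes, Benjamini-Hochberg adjusted p under 0.05), where 24.5% of all tested genes were called higher, 11.4% lower and 35.9% either way. No member was lower at an unadjusted p under 0.05 either (0 of 10), but DUSP5 was called lower after quantile normalization (-0.255) or with no intensity trend (-0.17). The median difference was 0.52 on the log2 scale over the members and 0.06 over all genes tested. All 10 members passed the filter of 1 CPM in 3 libraries. In the siHAND2 group, where HAND2 was at 54.2% and MYCN at 49.6% of the siCTR mean (70.0% for MYCN in siMYCN), the members split: 3 were called higher (18.1% of all genes) and 4 lower (11.8%; 29.9% either way), with a median of -0.12 over the members and 0.04 over all genes. Both comparisons use the same siCTR libraries, and the members were chosen with earlier results of these data known. In the direct comparison of siHAND2 with siMYCN, from which siCTR drops out, 7 of 10 members were lower and none higher, also at an unadjusted p under 0.05 (0 of 10), where 15.5% of all genes were called lower, 11.4% higher and 26.9% either way. The median of that difference was -0.50 over the members and -0.006 over all genes.

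**Figure D2:**
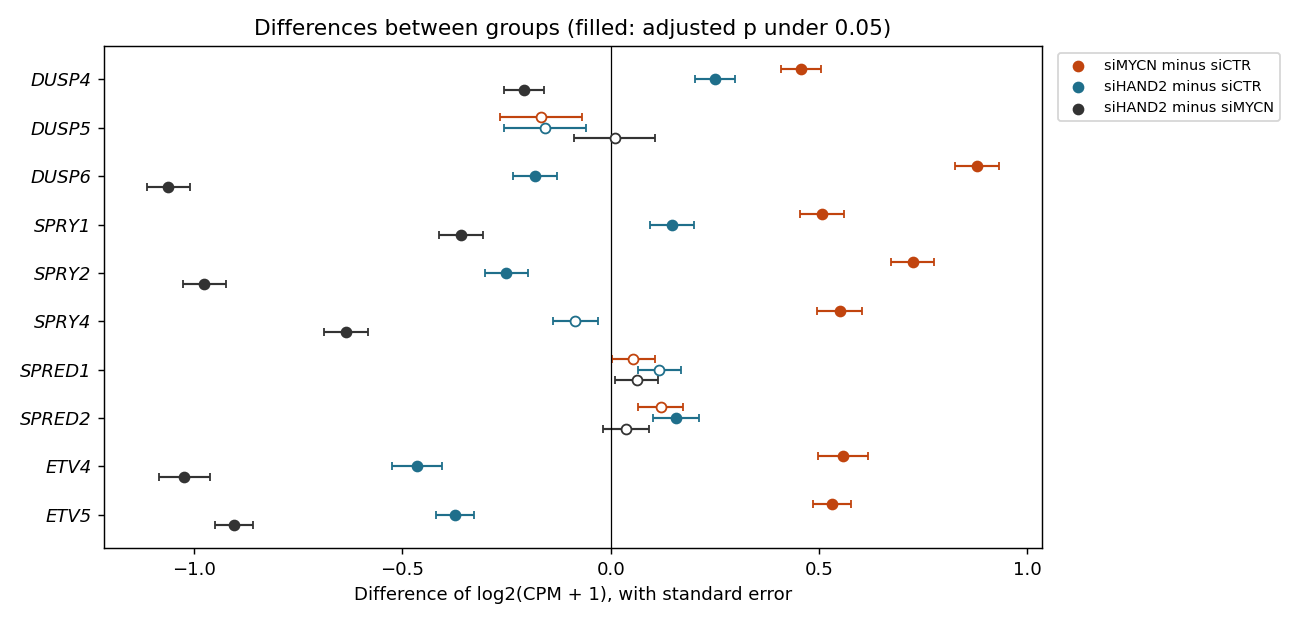
Difference of log2(CPM + 1) (x axis) for each member (y axis) in siMYCN minus siCTR, siHAND2 minus siCTR and siHAND2 minus siMYCN, with limma's standard error as the bar; filled points have an adjusted p under 0.05. The siMYCN points of 7 genes lie at 0.46 or more, and the siHAND2 points lie on either side of 0.

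DUSP6 encodes a cytoplasmic phosphatase selective for ERK. Its gene (chromosome 12, 89347235 to 89352501, GRCh38, minus strand) held 118, 118 and 105 CPM in the siCTR libraries 1 to 3, against 204, 208 and 218 CPM after siMYCN and 98.9, 95.3 and 106 CPM after siHAND2. The siMYCN libraries lay far above all others, and the siHAND2 libraries lay at or below the siCTR range, with an overlap between the lowest siCTR library and the highest siHAND2 library. DUSP6 rose by 0.88 in siMYCN (standard error 0.05, limma adjusted p = 1.39e-08), the largest rise among the members, to 185% of the siCTR mean. In siHAND2 the difference was -0.18 (standard error 0.05, limma adjusted p = 0.0151), a call that was lost without siCTR replicate 1 (-0.16), siCTR replicate 2 (-0.15) or siHAND2 replicate 2 (-0.15), or with no intensity trend. The siHAND2 mean was 47.7% of the siMYCN mean, a difference of -1.06 (limma adjusted p = 1.62e-10). AC024909.1, a gene annotated on the other strand over 1487 bases of DUSP6, averaged 3.88, 6.62 and 3.52 CPM in the 3 groups. Strand use in the counting is not given in the sources used here.

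DUSP4 encodes a nuclear phosphatase that acts on ERK and other MAP kinases. It lies on chromosome 8 (29333064 to 29350684, minus strand) and held 190.3, 188 and 187 CPM in the siCTR libraries 1 to 3, against 259.8, 243 and 276 CPM after siMYCN and 231, 229.7 and 213 CPM after siHAND2. Every library of either knockdown exceeded every siCTR library. The rise of DUSP4 was 0.46 in siMYCN (standard error 0.05, limma adjusted p = 2.36e-06). In siHAND2 it was 0.25 (standard error 0.05, limma adjusted p = 0.000837), and the knockdowns differed by -0.21 (limma adjusted p = 0.00382). Its siHAND2 value was thus positive where that of DUSP6 was negative.

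DUSP5, a nuclear phosphatase selective for ERK (chromosome 10, 110497907 to 110511533), was the member with the fewest reads. It held 2.87, 3.03 and 3.27 CPM in the siCTR libraries 1 to 3, against 2.58, 2.72 and 2.54 CPM after siMYCN and 2.499, 2.79 and 2.62 CPM after siHAND2. All knockdown libraries lay below the siCTR libraries, yet neither difference passed the test. The siMYCN difference was -0.17 (95% interval -0.38 to 0.04, limma adjusted p = 0.201) and the siHAND2 difference -0.16 (-0.37 to 0.05, limma adjusted p = 0.245), on a scale that understates changes of genes near 1 CPM. The knockdowns differed by 0.01 (95% interval -0.20 to 0.22, limma adjusted p = 0.954). At this level the coefficient of variation from counting was 11.1% to 11.98% by group, compared with at most 1.41% for DUSP4.

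The Sprouty genes encode membrane-associated inhibitors that are induced by growth factor signals and blunt the path from receptor to RAS and RAF. SPRY2 (chromosome 13, 80335976 to 80341126, minus strand) held 52.5, 49.6 and 52.7 CPM in the siCTR libraries 1 to 3, against 87.8, 84.3 and 85.7 CPM after siMYCN and 41.6, 41.9 and 46.2 CPM after siHAND2. The groups did not overlap, with siMYCN on top and siHAND2 at the bottom. SPRY2 rose by 0.73 in siMYCN (standard error 0.05, limma adjusted p = 5.48e-08) and with siHAND2 fell by 0.25 (standard error 0.05, limma adjusted p = 0.00143). Between the knockdowns it differed by -0.98 (limma adjusted p = 3.06e-10), which leaves siHAND2 at 50.3% of the siMYCN mean.

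SPRY4 (chromosome 5, 142310427 to 142326455, minus strand) held 67.2, 64.5 and 71.3 CPM in the siCTR libraries 1 to 3, against 96.6, 96.9 and 105 CPM after siMYCN and 60.3, 67.0 and 63.8 CPM after siHAND2. Its siMYCN libraries stood apart from the rest, and its siCTR and siHAND2 libraries overlapped. SPRY4 rose by 0.55 in siMYCN (standard error 0.05, limma adjusted p = 1.2e-06). In siHAND2 the difference was -0.09 (95% interval -0.20 to 0.03, limma adjusted p = 0.252) and was called lower only after median-ratio rescaling (-0.14). The knockdowns differed by -0.64 (limma adjusted p = 1.32e-07). SPRY4-AS1, which overlaps it by 1163 bases on the other strand, stayed at or under 0.92 CPM in every library.

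SPRY1 (chromosome 4, 123396795 to 123403760, plus strand) held 32.5, 31.0 and 31.4 CPM in the siCTR libraries 1 to 3, against 43.9, 45.3 and 47.0 CPM after siMYCN and 33.3, 36.4 and 35.7 CPM after siHAND2. Both knockdown groups lay above siCTR, siMYCN further than siHAND2. SPRY1 rose by 0.51 in siMYCN (standard error 0.05, limma adjusted p = 2.36e-06). In siHAND2 the value was 0.15 (standard error 0.05, limma adjusted p = 0.045), a call that survived the removal of siHAND2 replicate 1 only and was lost with any of the other 8 libraries removed, at values of 0.12 (without siHAND2 replicate 2) to 0.17 (without siCTR replicate 1). It was also lost in 5 of the 9 other settings. Between the knockdowns SPRY1 differed by -0.36 (limma adjusted p = 7.4e-05).

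SPRED1 and SPRED2 encode relatives of the Sprouty proteins that bring neurofibromin, a RAS inactivator, to the membrane. SPRED1 (chromosome 15, 38252836 to 38357249) held 74.4, 71.1 and 72.2 CPM in the siCTR libraries 1 to 3, against 73.2, 74.5 and 78.4 CPM after siMYCN and 73.8, 78.4 and 84.5 CPM after siHAND2. SPRED2 (chromosome 2, 65310851 to 65432637) held 49.7, 45.2 and 44.7 CPM in the siCTR libraries 1 to 3, against 52.3, 47.9 and 51.8 CPM after siMYCN and 50.4, 53.2 and 52.2 CPM after siHAND2. Groups overlapped throughout for SPRED1, and for SPRED2 the siHAND2 libraries alone lay above siCTR. Neither gene was called in siMYCN, where the differences were 0.05 for SPRED1 (95% interval -0.06 to 0.16, limma adjusted p = 0.448; -0.01 after median-ratio rescaling or quantile normalization) and 0.12 for SPRED2 (0.01 to 0.23, limma adjusted p = 0.0969), the latter called higher without siCTR replicate 1 (0.17). SPRED2 alone of them was called higher in siHAND2, at 0.16 (limma adjusted p = 0.0382), and that call was lost without siCTR replicate 2 (0.14), siCTR replicate 3 (0.13), siHAND2 replicate 2 (0.14) or siHAND2 replicate 3 (0.15) and in 4 of the 9 other settings. For SPRED1 the siHAND2 value was 0.12 (0.01 to 0.23, limma adjusted p = 0.1), which was called higher without siHAND2 replicate 1 (0.16). The knockdowns differed by 0.06 for SPRED1 (95% interval -0.05 to 0.17) and 0.04 for SPRED2 (-0.08 to 0.15), and limma called neither.

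ETV4 and ETV5 were the members that fell most in siHAND2. ETV4 (chromosome 17, 43527844 to 43579620, minus strand) held 53.2, 56.0 and 50.6 CPM in the siCTR libraries 1 to 3, against 83.4, 73.8 and 79.5 CPM after siMYCN and 38.1, 41.1 and 35.8 CPM after siHAND2. ETV5 (chromosome 3, 186046314 to 186110318, minus strand) held 65.8, 65.4 and 65.8 CPM in the siCTR libraries 1 to 3, against 92.5, 94.3 and 99.3 CPM after siMYCN and 50.3, 49.0 and 52.2 CPM after siHAND2. For both genes the groups stood in the same order with no overlap: siMYCN, siCTR, siHAND2. ETV4 rose by 0.56 in siMYCN (standard error 0.06, limma adjusted p = 3.37e-06) and with siHAND2 fell by 0.47 (limma adjusted p = 2.2e-05), to 72.0% of siCTR. ETV5 rose by 0.53 (standard error 0.05, limma adjusted p = 3.14e-07) and fell by 0.37 (limma adjusted p = 1e-05), to 76.9% of siCTR. The siHAND2 libraries differed from the siMYCN libraries by -1.02 for ETV4 (limma adjusted p = 1.52e-09) and by -0.90 for ETV5 (limma adjusted p = 1.84e-10).

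The whole ETV4 interval of the table, 51777 bases, is shared with DHX8, and its end lies 33280 bases beyond that of RefSeq. DHX8, a helicase gene on the other strand, averaged 123, 129.7 and 129.7 CPM in siCTR, siMYCN and siHAND2. DHX8 differed by 0.08 in either knockdown (limma adjusted p = 0.18 and 0.207), while ETV4 rose in siMYCN and fell in siHAND2. Whether reads of DHX8 were counted for ETV4 was not tested. DGKG overlaps ETV5 by 4651 bases on the same strand and averaged 3.32, 5.11 and 6.43 CPM, rising in siMYCN (0.48, limma adjusted p = 0.00498), as ETV5 did, and in siHAND2 (0.78, limma adjusted p = 0.000105), where ETV5 fell.

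Ratios of 2 genes within a library do not depend on how libraries are scaled, and the pairs given here were chosen after the values were seen, so they carry no test. DUSP6 stood at 0.618, 0.629 and 0.563 of DUSP4 in siCTR, at 0.785, 0.856 and 0.79 in siMYCN and at 0.429, 0.415 and 0.497 in siHAND2. The 3 groups were apart, with siMYCN above and siHAND2 below siCTR. SPRY2 measured 1.63 ± 0.0412 times SPRY1 in siCTR, 1.895 ± 0.095 times in siMYCN and 1.23 ± 0.0734 times in siHAND2 (mean ± SD, n = 3). SPRY4 over SPRY1 was 2.14 ± 0.113, 2.19 ± 0.049 and 1.81 ± 0.026 in the same order, so only siHAND2 lay apart. ETV4 over ETV5 averaged 0.811, 0.828 and 0.761, and SPRED1 over SPRED2 averaged 1.56, 1.49 and 1.52, with overlapping groups for both. The groups were thus apart for DUSP6 over DUSP4 and SPRY2 over SPRY1, and not for the PEA3 or SPRED pairs.

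**Figure D3:**
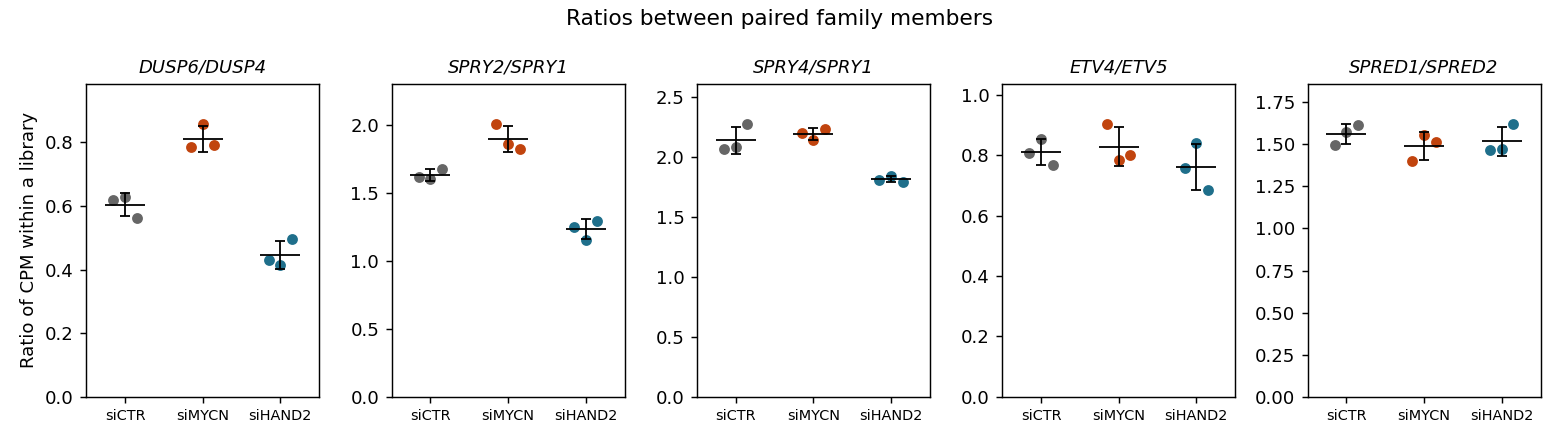
Ratio of the CPM of 2 genes within each library (y axis from 0) for 5 pairs, with points for libraries, a wide bar for the group mean and an error bar for the SD (n = 3). DUSP6/DUSP4 and SPRY2/SPRY1 separate the 3 groups, and ETV4/ETV5 and SPRED1/SPRED2 overlap.

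The members' profiles over the 9 libraries resembled each other to different degrees, as Pearson correlations of log2(CPM + 1) describe; these points are 3 groups of 3, so the values mostly restate the group means. The highest was that of DUSP6 and SPRY2 (0.984), followed by SPRY2 and ETV5 (0.979) and ETV4 and ETV5 (0.974), and the lowest was that of DUSP4 and DUSP5 (-0.802). Once group means were removed, DUSP6 with SPRY2 gave 0.204, SPRY2 with ETV5 0.427 and ETV4 with ETV5 -0.51. Among the 11192 other genes tested with a mean of at least 5 CPM, the nearest profile to SPRY2 was that of SLC6A2, the noradrenaline transporter gene (r = 0.996), which averaged 24.5, 53.4 and 18.1 CPM in siCTR, siMYCN and siHAND2. The nearest to DUSP6 was LHFPL2 (0.996), to ETV5 SH3RF1 (0.997), to ETV4 PRRT4 (0.994), to SPRY4 the utrophin gene UTRN (0.991), to DUSP4 the Wnt receptor gene FZD7 (0.99) and to SPRY1 the noncoding LINC02073 (0.988). SPRED1 lay nearest ZMYM2 (0.971), SPRED2 nearest GTF3C6 (0.971) and DUSP5 nearest HIBCH (0.929).

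The cascade that the members restrain was examined through lists of related genes. Of 27 core genes (adaptors, RAS, RAF, MEK, ERK and scaffolds), 26 were tested, and 14 rose and 1 fell in siMYCN, with a list median of 0.16, where 24.5% higher and 11.4% lower were called over all genes. In siHAND2 5 rose and 1 fell (median 0.10; 18.1% higher and 11.8% lower over all genes), and between the knockdowns 2 were higher and 6 lower in siHAND2 (11.4% and 15.5% over all genes). The adaptor gene SHC1 rose in both, from 63.0 ± 2.27 CPM in siCTR to 99.4 ± 3.80 after siMYCN (0.65, limma adjusted p = 9.31e-08) and to 76.4 ± 3.48 after siHAND2 (0.27, limma adjusted p = 0.000471). GAB2, another adaptor gene, rose in siMYCN (0.55), and its relative GAB1 rose in siHAND2 (0.44). MRAS (0.48 and 0.36) and the exchange factor gene SOS2 (0.39 and 0.38) rose in both. NRAS was the core gene that fell in siMYCN, by 0.29. RPS6KA2, which encodes a kinase that ERK activates, rose by 0.31 in siMYCN and fell by 0.40 in siHAND2, from 80.9 ± 3.01 CPM to 100.7 ± 0.579 and 60.9 ± 1.65. The ERK1 gene MAPK3 averaged 21.6, 24.0 and 21.8 CPM and passed in no comparison.

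Among 16 other brakes on the cascade, 15 were tested. In siMYCN 6 rose and 1 fell, and in siHAND2 8 rose and 2 fell, with list medians of 0.11 and 0.16. Over all genes the shares were 24.5% higher and 11.4% lower in siMYCN and 18.1% higher and 11.8% lower in siHAND2. SPRED3, the third SPRED gene, passed the test in siMYCN with a rise of 0.67 (4.29 ± 0.687 to 7.36 ± 0.476 CPM, limma adjusted p = 0.000101). In siHAND2 it was called at 0.33, and that call was lost without siCTR replicate 2 (0.31), siCTR replicate 3 (0.25) or siHAND2 replicate 1 (0.275), with no filter, and after median-ratio rescaling (0.29) or quantile normalization (0.27). SPRY3 rose in siHAND2 by 0.58 from 1.07 ± 0.27 to 2.07 ± 0.294 CPM, and by 0.22 to 0.91 over the other settings and fits. PEA15, which holds ERK in the cytoplasm, rose by 0.45 in siMYCN and by 0.19 in siHAND2, and PEBP1, the RAF inhibitor gene, fell by 0.15 and 0.17. RASA3, a RAS inactivator gene, fell by 0.46 in siHAND2. ERRFI1, an inhibitor of EGF receptors, was called higher in both (0.31 and 0.35), without the siMYCN call when siCTR replicate 2 (0.255) or siMYCN replicate 3 (0.23) was left out, with no filter or after quantile normalization (0.23), and without the siHAND2 call when siCTR replicate 2 was (0.30). NF1, the neurofibromin gene, averaged 117, 126 and 135 CPM and was called higher in siHAND2 (0.20), but not without siCTR replicate 1 (0.20), siCTR replicate 2 (0.18), siHAND2 replicate 2 (0.20) or siHAND2 replicate 3 (0.13), nor with no filter, no intensity trend, median-ratio rescaling (0.145) or quantile normalization (0.16).

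All 8 of the other MAP kinase phosphatase genes on the list were tested, of which 3 rose and 2 fell in siMYCN (24.5% higher and 11.4% lower over all genes) and 1 rose and 1 fell in siHAND2 (18.1% higher and 11.8% lower). DUSP10, whose product prefers the stress kinases JNK and p38, rose in both, from 7.91 ± 0.239 CPM to 10.9 ± 0.713 after siMYCN (0.41, limma adjusted p = 0.000433) and to 14.9 ± 0.839 after siHAND2 (0.84, limma adjusted p = 2.98e-07). DUSP8 rose by 0.44 and DUSP1 by 0.26 in siMYCN, the latter lost as a call after quantile normalization (0.175). DUSP9, another ERK-selective cytoplasmic phosphatase gene and so a relative of DUSP6, fell in both, from 2.03 ± 0.597 CPM to 0.847 ± 0.078 (-0.70) and 0.936 ± 0.321 (-0.64), so that siCTR alone had all 3 libraries above 1 CPM. Over the other settings and fits these values ran from -1.13 to -0.26 in siMYCN and from -1.06 to -0.24 in siHAND2. The filter of 5 CPM removed DUSP9. DUSP7, of the same subgroup, was called lower in siMYCN (-0.27), which did not pass when siCTR replicate 1 (-0.27), siCTR replicate 2 (-0.23) or siMYCN replicate 2 (-0.18) was removed.

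Other genes that ERK is known to induce did not move as one. Of 21 listed, 14 were tested, with 7 higher and 1 lower in siMYCN (24.5% higher and 11.4% lower over all genes) and 3 higher and 4 lower in siHAND2 (18.1% higher and 11.8% lower). PHLDA1, often used beside DUSP6 and the Sprouty genes as a readout, had the group order siMYCN, siCTR, siHAND2: it measured 35.7 ± 5.42 CPM in siCTR, rose to 54.9 ± 2.49 after siMYCN (0.62, limma adjusted p = 0.000245) and fell to 20.7 ± 3.50 after siHAND2 (-0.76, limma adjusted p = 3.89e-05). EGR1, an immediate early gene, averaged 1.70, 3.33 and 1.499 CPM and rose in siMYCN by 0.69. That rise ran from 0.31 to 0.95 over the other settings and fits. CCND1, the cyclin D1 gene, rose about equally in both, from 994 ± 46.1 CPM to 1384 ± 96.1 and 1394 ± 90.1 (0.47 and 0.49). MYC rose in both as well, from 0.544 ± 0.148 CPM to 1.89 ± 0.349 and 4.71 ± 0.839 (0.90 and 1.88). MYC passed the filter only through the knockdown libraries, since no siCTR library exceeded 0.642 CPM. At such low levels the size of a difference depends on the pseudocount: with 0.1 and 5 CPM in place of 1, MYC differed by 1.64 and 0.31 in siMYCN and by 2.91 and 0.805 in siHAND2, and was called each time. EPHA2 fell in both (-0.49 and -0.51), ARC fell in siHAND2 (-0.82) and PLAUR, the urokinase receptor gene, rose there (0.49).

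ETS factors and Capicua made up the last list of the pathway's nuclear end, with all 11 genes tested, 3 higher and 2 lower in siMYCN (24.5% higher and 11.4% lower over all genes) and 1 higher and 2 lower in siHAND2 (18.1% higher and 11.8% lower). ETV1, the third PEA3 factor, measured 36.7 ± 0.797 CPM in siCTR and 40.8 ± 2.18 in siMYCN, a difference of 0.15 that did not pass (limma adjusted p = 0.0941). In siHAND2 it fell to 23.98 ± 2.36 CPM (-0.60, limma adjusted p = 4e-06), so in siHAND2 all 3 PEA3 factors were lower. CIC itself rose in both knockdowns, from 38.5 ± 0.942 CPM to 47.7 ± 2.88 (0.30, limma adjusted p = 0.000875) and 46.1 ± 3.20 (0.25, limma adjusted p = 0.00413), and its partner gene ATXN1 rose in siMYCN (0.34). ETS2 fell in both (-0.28 and -0.47) and ETS1 rose in siMYCN (0.34). ELK3 was called lower in siMYCN (-0.15), a call lost without any one of siCTR replicates 1 (-0.16), 2 (-0.16) and 3 (-0.13), siMYCN replicates 1 (-0.11) and 2 (-0.16), or siHAND2 replicate 2 (-0.15), and with no filter.

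**Figure D4:**
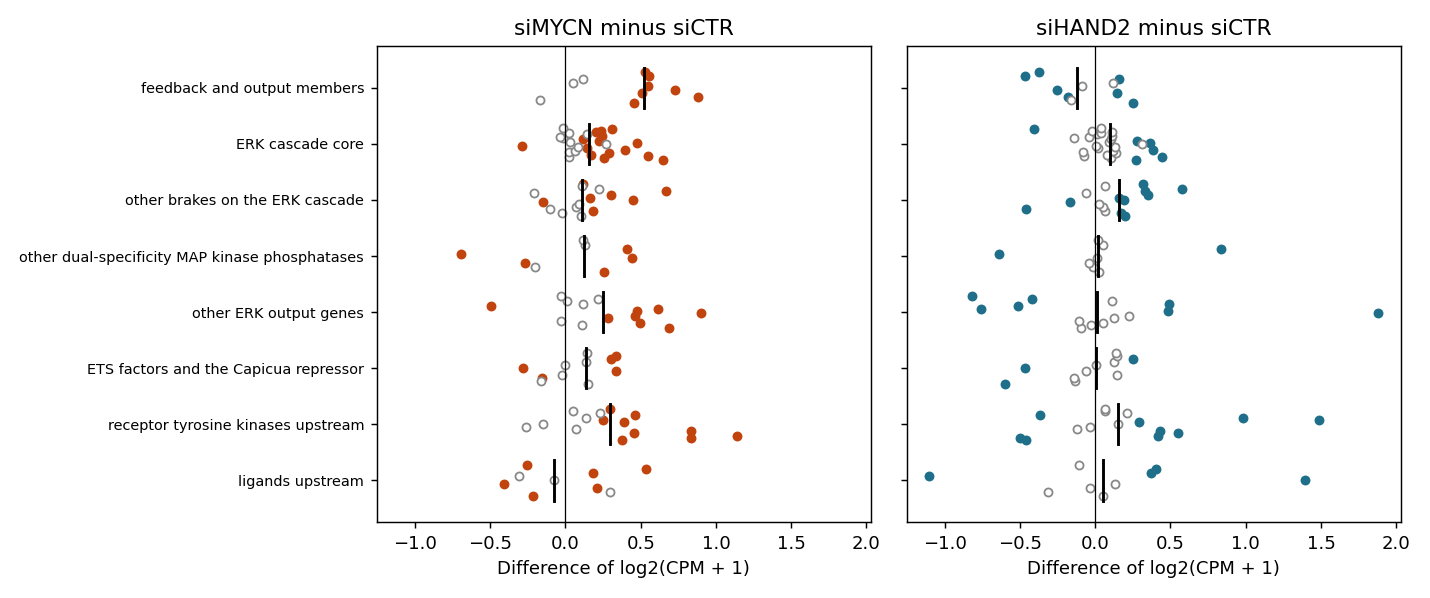
Difference of log2(CPM + 1) (x axis) of each tested gene in the 10 members and in 7 lists of the pathway (rows), for siMYCN minus siCTR on the left and siHAND2 minus siCTR on the right; filled points have an adjusted p under 0.05 and the vertical bar is the median of a row. The members' median is 0.52 in siMYCN, beside 0.16 for the cascade core, and -0.12 in siHAND2.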

How the data were processed

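The authors deposited 1 table for the series whose values are CPM per gene, with a constant of 0.0001 in every value, so that each column sums to 1000002.4 to 1000002.6. STAR 2.5.1 and Partek are named in the submitters' processing notes; the counting rule, strand use and annotation are not given in the sources used here. Those notes name hg19 and GRCh37, but the table's gene starts match GRCh38: 8209 of 18215 symbols had the identical RefSeq start, against 150 of 18619 for GRCh37 (GENCODE v44, lifted). Coordinates are printed as GRCh38, and printed ends are the listed stop minus 1.

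All value columns were used, each assigned by its name. Depth was taken from the smallest step of low values; 79.5% to 81.0% of values up to 20 steps were whole within 0.02 of a step, too few for a count model. Tests used log2(CPM + 1), a minimum of 1 CPM in 3 or more of the 9 libraries, and limma 3.58.1 in R 4.3.3 (1 mean per group, all 9 libraries, eBayes with an intensity trend, two-sided, Benjamini-Hochberg over 14495 genes, threshold 0.05). A fold change on this scale understates that of low genes. The fit was tested on simulated data in which rises and falls were equally many. In these data most genes called against siCTR were higher with CPM as deposited, so that run was no test of scaling. Named genes are the 10 members, the targets, up to 3 rises and 3 falls per list and comparison, a set of genes always named (MAPK3, CIC, ETV1, NF1, CCND1, PHLDA1, EGR1) and the nearest profile to each member; a few genes that the rule names are not reported here. The members and lists were chosen with earlier results of these data known. Alternatives were pseudocounts of 0.1 and 5, no low-value filter or one of 5 CPM, quantile normalization, median-ratio rescaling, 2 groups alone, no intensity trend, a replicate block and each library left out.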

Additional observations from a re-analysis of the deposited data

How the results depend on the processing

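In siMYCN against siCTR the 7 rises among the members were called in every one of the 9 other settings and the 9 fits without 1 library, and so were the 7 lower values of siHAND2 against siMYCN. In siHAND2 against siCTR the calls of DUSP4, SPRY2, ETV4 and ETV5 held throughout. The count of members called higher there (3) was 1 with no filter on low values, after median-ratio rescaling, after quantile normalization and with no intensity trend, since SPRY1 and SPRED2 lost their calls, and it lay between 1 and 4 when 1 library was left out; the count called lower (4) was 5 after median-ratio rescaling (SPRY4 added), 3 with no intensity trend (DUSP6 lost), and 3 to 4 with 1 library left out. One member was called lower in siMYCN after quantile normalization and 1 with no intensity trend (DUSP5 in both), and the filter of 5 CPM removed that gene. Signs turned for uncalled values only: SPRED1 in siMYCN with median-ratio rescaling (-0.007) and quantile normalization (-0.012), SPRED2 between the knockdowns without siMYCN replicate 2 (-0.002, in a range up to 0.060 with 1 library left out) and DUSP5 there without siMYCN replicate 3 (-0.006) or siHAND2 replicate 2 (-0.020, in a range up to 0.037); the cause was not tested. The share of called genes that were higher was 68.3% in siMYCN and 60.6% in siHAND2 with CPM as deposited, 49.7% and 42.1% after median-ratio rescaling, and 49.3% and 47.8% after quantile normalization. Over all genes, leaving out 1 library gave 4013 to 5854 calls in siMYCN, 3075 to 4290 in siHAND2 and 2909 to 3940 between the knockdowns. Same-numbered libraries of siCTR and siMYCN had deviations that correlated at 0.166, 0.076 and 0.177. Those of siCTR and siHAND2 gave 0.133, 0.039 and 0.173, and those of siMYCN and siHAND2 0.305, -0.04 and 0.172. Each siCTR library correlated best with its own number in siMYCN. In siHAND2 this held for siCTR replicates 1 and 3, while siCTR replicate 2 correlated best with siHAND2 replicate 1 (0.119). The reported fit did not pair libraries by number, and whether the numbers mark shared cultures was not tested. The replicate block gave 5895, 5089 and 4689 calls in the 3 comparisons, against 5209, 4339 and 3892 in the reported fit, and changed no member's call. Calls of the targets and the named pathway genes were lost in 19 of 734 values in siMYCN, in 23 of 657 in siHAND2 and in 32 of 623 between the knockdowns, with no change of sign. Depth limits DUSP5 most.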

Other observations

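The receptors that feed the cascade also differed between groups. Of 20 receptor tyrosine kinase genes listed, 15 were tested, and 9 rose and none fell in siMYCN (limma, Benjamini-Hochberg adjusted p under 0.05), where 24.5% of all genes were called higher and 11.4% lower. In siHAND2 6 rose and 3 fell (18.1% and 11.8% over all genes), and between the knockdowns 3 were higher and 6 lower in siHAND2 (11.4% and 15.5%). RET, the receptor of the GDNF family, rose from 369 ± 9.78 CPM to 659 ± 22.3 in siMYCN (0.83, limma adjusted p = 2.44e-09) and fell to 261 ± 7.39 in siHAND2 (-0.50, limma adjusted p = 1.33e-07). ALK rose from 278 ± 13.5 CPM to 361 ± 8.74 (0.37, limma adjusted p = 1.24e-05) and fell to 202 ± 9.34 (-0.46, limma adjusted p = 1.19e-06). KIT, the stem cell factor receptor, had the same order of groups (0.46 and -0.36). NTRK2 rose in both, by 0.46 and 0.55, whereas PDGFRA rose from 121 ± 4.49 CPM to 144 ± 3.49 in siMYCN (0.25) and to 341 ± 27.7 in siHAND2 (1.48, limma adjusted p = 9.15e-12). PDGFRB rose in siHAND2 (0.98), and is itself on the fibroblast marker list, of which DCN and LUM were higher and THY1 lower in mean CPM in siHAND2 than in siCTR. NTRK3, at 0.668, 2.01 and 1.25 CPM, rose in siMYCN (0.84, and 0.30 to 1.43 over the other settings and fits). NTRK3 passed the filter only through the knockdown libraries, since no siCTR library exceeded 0.807 CPM. Its call in siHAND2 (0.43) was lost without siCTR replicate 1 (0.44) or 2 (0.37) and without siHAND2 replicate 1 (0.46), 2 (0.41) or 3 (0.42). That call was also lost with no filter, with a pseudocount of 5 CPM (0.14) and after quantile normalization (0.35).

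Only 9 of 24 listed ligand genes were tested, the others being too low or outside the table. In siMYCN 3 rose, PTN (0.54), NRG1 (0.21) and MDK (0.18), and 3 fell, KITLG (-0.41), BDNF (-0.25) and FGF2 (-0.22). Over all genes 24.5% were called higher and 11.4% lower there. In siHAND2 3 rose, HGF among them, and 1 fell (18.1% higher and 11.8% lower over all genes). The FGF2 call was lost without siCTR replicate 1 (-0.18), the NRG1 call without siCTR replicate 3 (0.17) and, with that of MDK, after median-ratio rescaling. Pleiotrophin (PTN) and midkine (MDK), a pair of related growth factors, rose in siHAND2 as well (0.41 and 0.37). HGF, the ligand of MET, averaged 0.539 CPM in siCTR and 3.06 in siHAND2 and was tested only through its siHAND2 libraries, since no other library reached 1 CPM. Its difference of 1.39 was 2.32 and 0.54 with pseudocounts of 0.1 and 5 CPM, and with any siHAND2 library left out it was not tested. IGF2 fell in siHAND2 from 2.32 ± 0.235 to 0.555 ± 0.23 CPM (-1.10, limma adjusted p = 1.55e-05). IGF2 passed the filter only through siCTR and siMYCN libraries, since no siHAND2 library exceeded 0.743 CPM. Its value ran from -1.95 to -0.40 over the other settings and fits.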
